A study of Oryza sativa Japonica Group with 5 samples.

Results

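Leaves of pls4, a rice mutant (Oryza sativa, Japonica Group) that the series studies for its susceptibility to sheath blight, were compared with wild type leaves for the genes that bring nitrogen into amino acids. RNA was sequenced from 2 pls4 libraries, whose treatment is labelled knockdown, and from 3 wild type libraries, labelled non knockdown; both groups are described as leaf and as mesophyll cell, the photosynthetic cell of the leaf interior. The labels give no plant age, nitrogen supply or altered gene for pls4, and they do not say whether replicates came from separate plants, so every p-value here rests on library-to-library spread, part of which may be technical. The members are the nitrogen assimilation genes NIA1, NiR, GS2, Fd-GOGAT, NADH-GOGAT1, GS1;1, GS1;2, NRT1.1B and AMT1;1, taken by locus identifier. The rule itself uses no expression value, but the members were chosen with earlier results of these data known. Of these 9 identifiers, 8 were found among the 36475 loci, and NADH-GOGAT1 (Os01g0681900) was not analysed here. All 8 passed the filter on low values.

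Plants take up nitrate and ammonium through membrane transporters. Nitrate is reduced to nitrite by nitrate reductase in the cytosol, and nitrite, which is toxic when it accumulates, is reduced to ammonium by nitrite reductase in the plastid. In the chloroplast, glutamine synthetase GS2 and the ferredoxin-dependent glutamate synthase Fd-GOGAT bind ammonium into glutamine and glutamate, including the ammonium that photorespiration releases. Cytosolic glutamine synthetases (GS1) are known for making the glutamine that moves nitrogen through the plant and out of ageing leaves. NADH-dependent glutamate synthase, also listed here as a plastid enzyme, turns glutamine into glutamate.

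Expression was deposited as FPKM, fragment numbers corrected for the length of the gene and the size of the library. Libraries summed to between 736527 and 758853 FPKM; read depth is unknown, so no counting error can be given. Changes are log2 fold changes, pls4 minus wild type, of FPKM + 1 with their standard error, fitted with limma over 19637 loci, and a gene was called at a Benjamini-Hochberg adjusted p under 0.05. The genotypes differed widely: 52.0% of tested loci were called, 33.4% higher and 18.5% lower in pls4. Over every tested locus the median change stood at 0.15. It was -0.00027 after median ratio scaling, in which libraries are brought to the same typical level, with 21.7% of loci called higher and 24.6% lower. Small changes therefore have no secure direction. Markers of mesophyll (RBCS2, RCA, Lhcb1 and a carbonic anhydrase gene) summed to 10425 and 13287 FPKM in the pls4 libraries and to between 22505 and 31909 in wild type, and all 4 were called lower (2 after quantile normalization). Markers of vascular tissue and secondary walls were CESA4, CESA7, CESA9, BC1 and SUT1. They summed to between 49.8 and 58.5 FPKM in pls4 and between 29.2 and 35.3 in wild type. SUT1 held most of each sum, with 34.74 and 38.52 FPKM in pls4 and between 26.83 and 31.14 in wild type. The 5 vascular genes were all called higher, but SUT1 kept its call in only 3 of 13 alternatives. CESA7 and CESA9 lay under FPKM 1 in every wild type library and passed the filter only through the pls4 libraries. With median ratio scaling 4 of the 5 were called. Without pls4 replicate 1, 1 of 3 that still passed the filter was called, and without pls4 replicate 2, 2 of 3; CESA4 was called in both. Of the root markers LSI1 and LSI2, LSI2 was listed at 0 in every library. LSI1 had 16.59 and 20.13 FPKM in pls4 and between 11.35 and 14.63 in wild type. It was called higher but kept its call in only 6 of 13 alternatives. Of the markers of dividing cells, CDKB1;1 was called higher (15.8 FPKM in pls4 and 8.83 in wild type). PCNA was not called (12.5 in pls4 and 14.7 in wild type). MCM2 was called lower (0.135 in pls4 and 1.26 in wild type). It passed the filter only through the wild type libraries, so it could enter only with a lower pls4 value. The sum of these markers was 28.4 and 28.6 FPKM in pls4 and between 24.1 and 25.4 in wild type. The seed gene GLUA2 lay between 3.6 and 4.88 FPKM in all libraries. In bulk leaf RNA, fewer cells of a type and less RNA per cell cannot be told apart.

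Of the 8 members, 2 rose (NIA1 and GS1;2), 2 fell (NiR and GS2) and 4 did not pass the test. A share of 50% called is close to the 52.0% of all tested loci, so the number of calls does not set the members apart. Values of the genotypes did not overlap for those same 4, against 69.9% of all tested loci. A fall of at least 1 on the log2 scale was called for 2 of the 8 and a rise of that size for none, beside 7.21% and 7.11% of all tested loci. The members' median change was -0.07. Of 3 plastid enzymes, 2 fell and none rose, while of 3 cytosolic enzymes 2 rose and none fell; neither of the 2 transporters passed. Whether the compartments differed as groups was not tested.

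**Figure D1:**
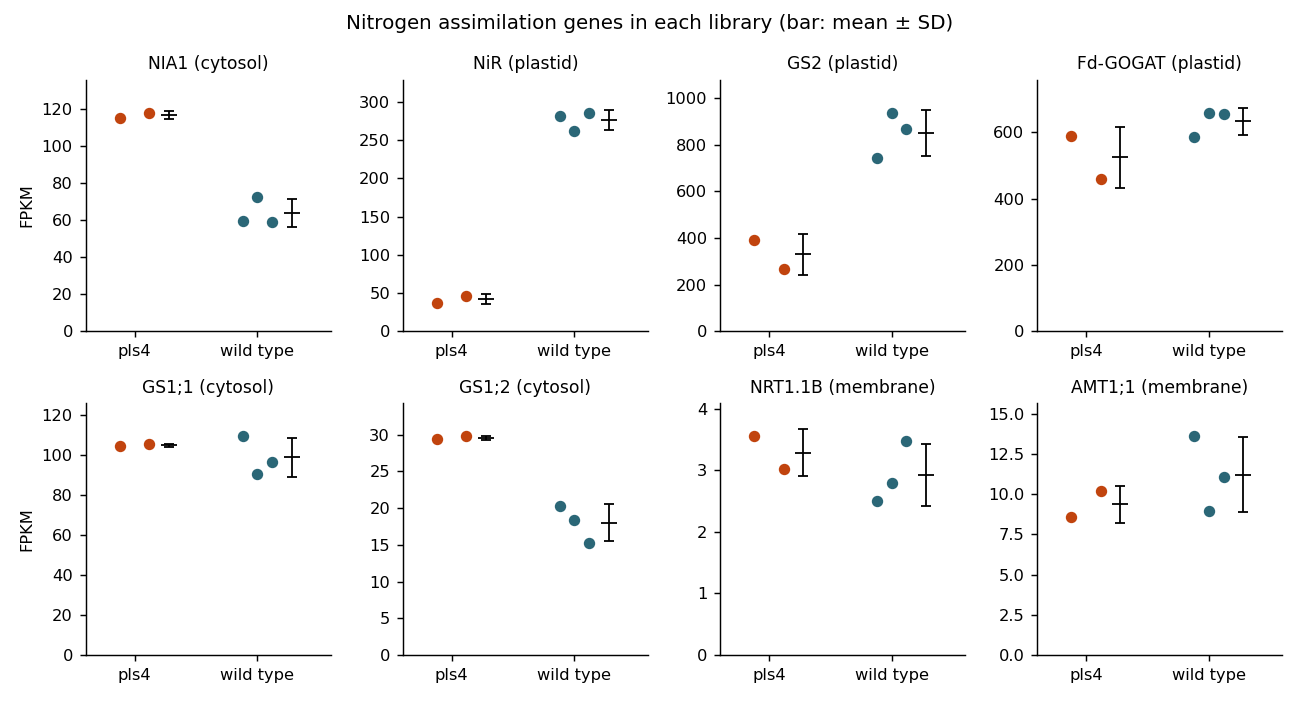
FPKM (linear axes from 0) of the 8 members in each library, with 2 pls4 libraries left of 3 wild type libraries and black bars for mean ± SD. NIA1 and GS1;2 lay higher in both pls4 libraries than in any wild type library, NiR and GS2 lay lower, and the other members overlapped.

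The first enzyme of nitrate use and the second moved in opposite directions. NIA1 (Os08g0468100), a nitrate reductase, had 115.31 and 118.16 FPKM in the pls4 libraries, against 59.73, 72.76 and 59.28 in the wild type libraries. Both pls4 values lay above every wild type value. NIA1 averaged 117 ± 2 FPKM in pls4 and 63.9 ± 7.7 in wild type (SD), 1.83-fold higher, and rose by 0.87 ± 0.11 (limma, adjusted p = 0.000587).

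NiR (Os01g0357100), nitrite reductase, had 37.13 and 46.25 FPKM in pls4, against 281.01, 261.4 and 285.96 in wild type. The groups were far apart, with little spread inside either. NiR averaged 41.7 ± 6.4 FPKM in pls4 and 276 ± 13 in wild type, 6.62-fold lower, and fell, with a log2 fold change of -2.71 ± 0.11 and a 95% interval from -2.96 to -2.45 (limma, adjusted p = 1.97e-06). Only 319 of the 19637 tested loci, NiR among them, had a change as low or lower. Across the 13 alternative settings the change of NiR ranged from -2.88 to -2.55 and the call was kept in each.

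Within each library, NiR stood at 0.322 and 0.391 times the FPKM of NIA1 in pls4, against 4.70, 3.59 and 4.82 times in wild type. In wild type every library thus held more FPKM of nitrite reductase than of NIA1, and in both pls4 libraries it held less. The ratio was 12.2-fold lower in pls4 (exact two-sided permutation test, p = 0.1, also 0.1 after adjustment over the 2 ratios tested, the smallest p that 2 against 3 libraries allow). A ratio inside a library does not depend on scaling between libraries.

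NIA2 (Os08g0468700), a further nitrate reductase gene whose identifier lies close to that of NIA1, had 26.24 and 19.52 FPKM in pls4, against 9.86, 8.47 and 7.46 in wild type. It rose by 1.31 ± 0.16 (limma, adjusted p = 0.000482). No source used here says how reads shared by close copies were assigned, so the division between NIA1 and NIA2 is uncertain. Their sum was 140 ± 3 FPKM in pls4 and 72.5 ± 7.7 in wild type, and the ratio of NiR to that sum, formed after the values were seen, was 12.9-fold lower in pls4. The nitrate reductase gene NR2 (Os02g0770800), and a second gene listed for nitrite reductase (Os02g0765900) did not exceed 0.33 and 0.15 FPKM in any library.

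GS2 (Os04g0659100), the chloroplast glutamine synthetase, had 390.94 and 267.33 FPKM in pls4, against 744.9, 937.82 and 865.84 in wild type. Both pls4 values lay below every wild type value, and the pls4 libraries differed from each other as well. GS2 averaged 329 ± 87 FPKM in pls4 and 850 ± 97 in wild type, 2.58-fold lower, and fell by 1.38 ± 0.17 on the log2 scale (limma, adjusted p = 0.000656). The 2 pls4 libraries differed from each other more for GS2 than for any cytosolic member: the change was -1.66 without pls4 replicate 1 and -1.11 without pls4 replicate 2. Wild type replicate 1 was the lowest wild type library for GS2. Among wild type libraries it was also lowest for RBCS2, the Rubisco small subunit gene (9723 FPKM, against 16673 and 15642). The same held for RCA and the carbonic anhydrase gene. Lhcb1, also a mesophyll marker, was instead lowest in wild type replicate 2 (10335 FPKM, against 10621 in replicate 1), as was NiR. Without wild type replicate 1 the change of GS2 was -1.48.

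Fd-GOGAT (Os07g0658400), which uses ferredoxin to turn glutamine and 2-oxoglutarate into glutamate, had 589.07 and 459.48 FPKM in pls4, against 584.65, 659.36 and 653.65 in wild type. One pls4 library lay inside the wild type range and the other below it. The values were 524 ± 92 FPKM in pls4 and 633 ± 42 in wild type, with a change of -0.28 ± 0.13 and a 95% interval from -0.58 to 0.02 (limma, adjusted p = 0.103). It was called lower with median ratio scaling (-0.46, limma adjusted p = 0.0367) and without pls4 replicate 1 (-0.46, limma adjusted p = 0.0208). The chloroplast partners GS2 and Fd-GOGAT therefore did not have like changes in size, although the difference between them was not tested.

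GS1;1 (Os02g0735200), the main cytosolic glutamine synthetase of these leaves, had 104.44 and 105.4 FPKM in pls4, against 109.41, 90.53 and 96.57 in wild type. The pls4 values fell inside the wild type range. The change was 0.09 ± 0.10 with a 95% interval from -0.14 to 0.32 (limma, adjusted p = 0.467), and it was -0.09 with median ratio scaling.

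GS1;2 (Os03g0223400), a cytosolic glutamine synthetase known in rice for assimilating ammonium in roots, had 29.42 and 29.79 FPKM in pls4, against 20.31, 18.36 and 15.31 in wild type. Both pls4 values exceeded all wild type values. GS1;2 rose by 0.70 ± 0.12 (limma, adjusted p = 0.00289), 1.65-fold, and by 0.52 with median ratio scaling, where it was still called. GS1;3 (Os03g0712800), the remaining cytosolic copy, was listed at 0.03 and 0 FPKM in pls4 and at 0 in all wild type libraries.

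The plastid form took a smaller share of all glutamine synthetase FPKM in pls4. GS2 made up 74.5% and 66.4% of the summed FPKM of GS2, GS1;1 and GS1;2 in the pls4 libraries, against 85.2%, 89.6% and 88.6% in wild type. The sum was 464 ± 86 FPKM in pls4 and 966 ± 87 in wild type. GS2 stood at 3.74 and 2.54 times GS1;1 in pls4, against 6.81, 10.4 and 8.97 times in wild type. The ratio was 2.79-fold lower (exact two-sided permutation test, p = 0.1, the smallest possible here, and 0.1 after adjustment), and the ratio to both cytosolic forms together was 3.02-fold lower, given with no test. GS2 nonetheless remained the most abundant glutamine synthetase in every library.

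**Figure D2:**
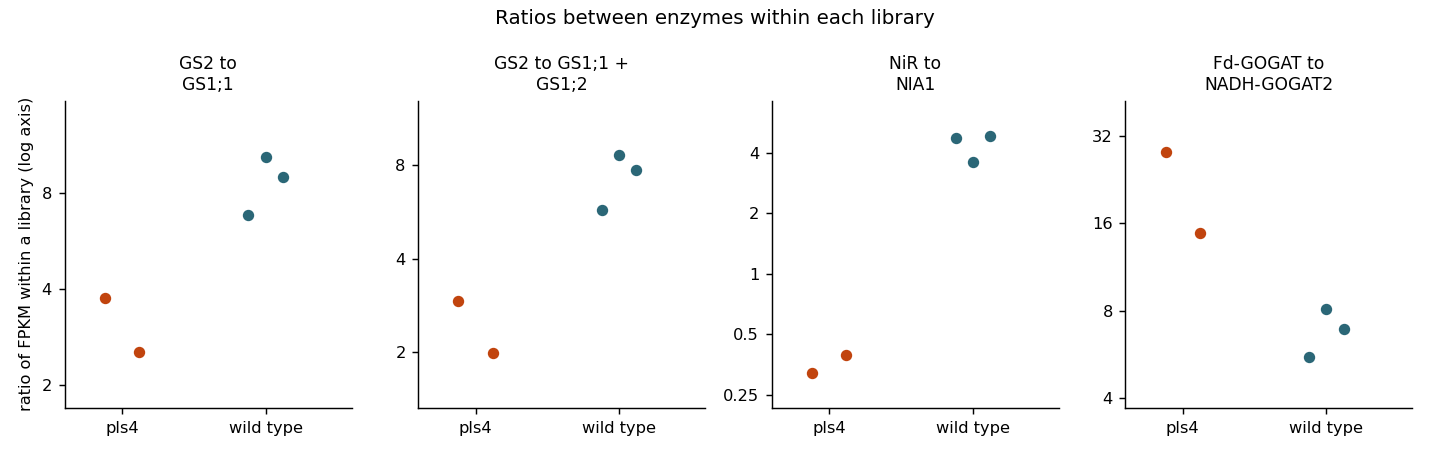
Ratio of FPKM between enzymes within each library (log axes), pls4 left of wild type, 1 point per library. GS2 to GS1;1, GS2 to GS1;1 plus GS1;2, and NiR to NIA1 were lower in both pls4 libraries than in any wild type library; Fd-GOGAT to NADH-GOGAT2 was higher, at 28.3 and 14.8 against 5.53 to 8.09.

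NADH-GOGAT2 (Os05g0555600), an NADH-dependent glutamate synthase, was the listed relative that stood in for the member without a value. It had 20.85 and 30.95 FPKM in pls4, against 105.65, 81.54 and 94.32 in wild type, and fell by 1.84 ± 0.18 on the log2 scale (limma, adjusted p = 0.000165). The groups were well separated. Fd-GOGAT stood at 28.3 and 14.8 times NADH-GOGAT2 in pls4, against 5.53, 8.09 and 6.93 times in wild type, a ratio chosen after the values were seen and given with no test. Among glutamate synthases the ferredoxin form thus took 96.6% and 93.7% of the FPKM in pls4, against 84.7% to 89.0% in wild type.

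The transporters did not pass the test. AMT1;1 (Os04g0509600), an ammonium transporter, had 8.56 and 10.2 FPKM in pls4, against 13.61, 8.98 and 11.06 in wild type, and the groups overlapped. Its change was -0.22 ± 0.17, with a 95% interval from -0.62 to 0.17 (limma, adjusted p = 0.300). NRT1.1B (Os10g0554200), a nitrate transporter and sensor, was the least abundant member, with 3.55 and 3.02 FPKM in pls4, against 2.5, 2.79 and 3.47 in wild type. Its change was 0.13 ± 0.14, with a 95% interval from -0.20 to 0.47 (limma, adjusted p = 0.459), and -0.0031 with median ratio scaling.

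The order of the members by level differed between the genotypes. In pls4 it ran Fd-GOGAT, GS2, NIA1, GS1;1, NiR, GS1;2, AMT1;1 and NRT1.1B, and in wild type GS2, Fd-GOGAT, NiR, GS1;1, NIA1, GS1;2, AMT1;1 and NRT1.1B. No pair of neighbours in either order overlapped between libraries of that genotype, although NIA1 and GS1;1 lay close in pls4. GS2 and Fd-GOGAT were in the top 2 places in both; among the 19637 tested loci GS2 stood at percentile 98.7 by mean FPKM in pls4 and 99.5 in wild type. NiR stood at percentile 85.1 in pls4 and 98.5 in wild type, and NIA1 at 95.4 in pls4 and 91.5 in wild type.

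**Figure D3:**
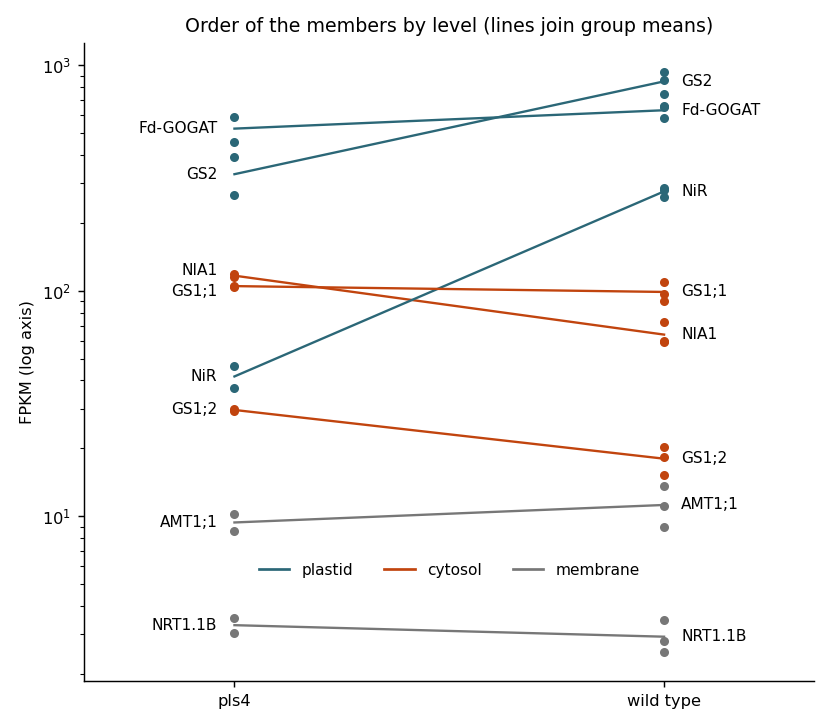
FPKM (log axis) of the 8 members, pls4 left and wild type right; points are libraries, lines join group means, and colour gives the compartment. NiR lies below NIA1 and GS1;1 in pls4 and above both in wild type, and Fd-GOGAT is highest in pls4 where GS2 is highest in wild type.

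The other nitrogen genes came from a list of 33, of which 23 passed the filter on low values. Of these 23, 9 rose, 3 fell and 11 did not pass, with a median change of 0.21; with median ratio scaling 9 rose and 7 fell, and the median was 0.03. The shares called as deposited can be read against 33.4% of all loci higher and 18.5% lower. Those with median ratio scaling can be read against 21.7% higher and 24.6% lower. The urease gene, AAP6 and NRT2.3, all among the rises, lay under FPKM 1 in every wild type library. They passed the filter only through the pls4 libraries, so they could enter only with a higher pls4 value. The 10 genes under the filter, among them the root nitrate transporter genes NRT2.1 and NRT2.2, did not exceed 0.71 FPKM in any library.

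Genes of urea use and of amino acid transport were among those called. Where wild type values lie under 1 FPKM, the log2 change depends on the added constant of 1, and the fold of the mean FPKM is given beside it. The urease gene (Os12g0234800), whose product releases ammonium from urea, had 8.16 and 8.13 FPKM in pls4, against 0.88, 0.57 and 0.31 in wild type, and rose by 2.54 ± 0.17, or by 3.67 with a constant of 0.1; the means differed 13.9-fold. DUR3 (Os10g0580400), a urea transporter, had 28.15 and 32.45 FPKM in pls4, against 19.09, 16.49 and 18.51 in wild type, and rose by 0.72 ± 0.10. No value of either gene overlapped between genotypes.

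LHT1 (Os08g0127100), an amino acid transporter, had 150.65 and 179.95 FPKM in pls4, against 64.79, 48.72 and 45.9 in wild type, and rose by 1.63 ± 0.16. AAP6 (Os01g0878700), an amino acid permease known in rice for grain protein content, had 3.68 and 5.03 FPKM in pls4, against 0.69, 0.66 and 0.88 in wild type, and rose by 1.61 ± 0.15, or by 2.39 with a constant of 0.1; the means differed 5.86-fold. Another amino acid transporter gene went the other way: AAP3 (Os06g0556000) fell by 0.45 ± 0.10, to 9.2 and 7.94 FPKM in pls4, against 12.69, 11.45 and 12.05 in wild type, a call lost without pls4 replicate 2 (limma, adjusted p = 0.0619).

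NRT2.3 (Os01g0704100), a high-affinity nitrate transporter, had 2.24 and 1.99 FPKM in pls4, against 0.44, 0.35 and 0.32 in wild type, and rose by 1.18 ± 0.12, or by 2.24 with a constant of 0.1; the means differed 5.72-fold. PPC4 (Os01g0208700), a phosphoenolpyruvate carboxylase that in rice sits in the chloroplast and feeds carbon skeletons to ammonium assimilation, had 71.84 and 56.28 FPKM in pls4, against 126.98, 150.62 and 148.9 in wild type, and fell by 1.14 ± 0.13. The remaining calls were smaller rises of AlaAT1 (0.67 ± 0.09), AAT1 (0.58 ± 0.09) and ASN2 (0.44 ± 0.08), enzymes that move amino groups to alanine, aspartate and asparagine.

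**Figure D4:**
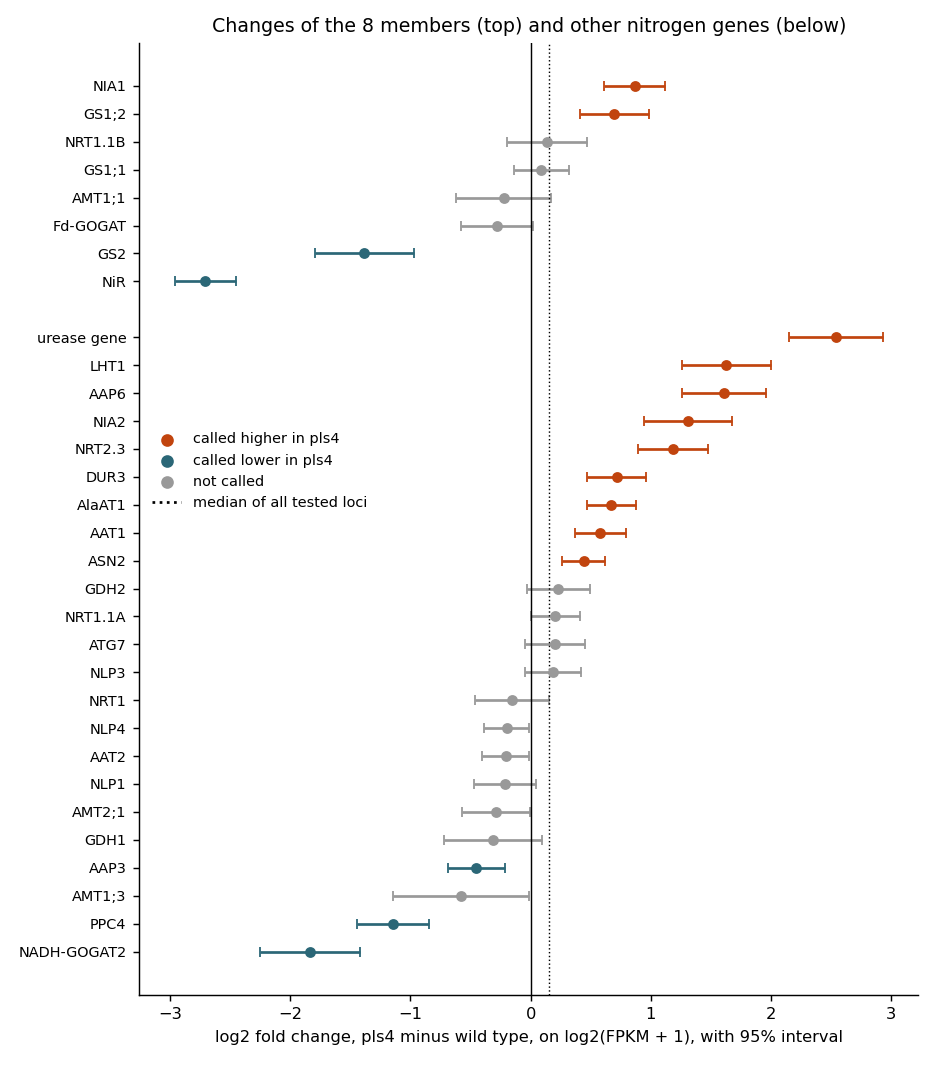
log2 fold change (pls4 minus wild type, on FPKM + 1) with 95% interval for the 8 members (top) and the 23 other nitrogen genes tested (below); colour gives the call and the dotted line the median of all tested loci, 0.15. NiR (-2.71) and the urease gene (2.54, on this scale) are the extremes.

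By profile over the 5 libraries (Euclidean distance of log2(FPKM + 1), each gene centred on its wild type mean, 44 listed genes compared), the genes nearest to GS2 were PPC4 at 0.376, RBCS2 at 0.435 and Lhcb1, a light-harvesting protein gene, at 0.559. RBCS2 had 6894 and 4906 FPKM in pls4, against 9723, 16673 and 15642 in wild type, so that, as for GS2, pls4 replicate 2 was the lowest library. The genes nearest to GS1;1 were NRT1.1A at 0.239, GDH2 at 0.276 and NLP3 at 0.309, none of them called. With this centring the distance mostly restates how alike the changes in pls4 are. Neighbours of a gene with a small change therefore have small changes too. The genes compared include the mesophyll markers. The part of the lower mesophyll markers in the lower GS2 and NiR values was not tested. Nor was the part of the higher vascular markers in the higher GS1;2 values.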

How the data were processed

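Leaf RNA of 2 pls4 and 3 wild type libraries was analysed from the FPKM values the authors deposited, 1 file per library, unit per the file headers. TopHat2 2.1.1 and genome build IRGSP-1.0 are named in the submitters' processing notes; counting tool, annotation and scaling were not given in the sources used here. Libraries were grouped by their titles. A locus entered the test if 2 or more libraries reached FPKM 1. The test was limma 3.58.1 under R 4.3.3, run on log2 values of FPKM + 1 with its variance trend and no further terms, and p-values were adjusted over all tested loci (threshold 0.05). The procedure was also run on simulated data with few changed loci and wild type spread in both groups. That setting differs from these data, so it does not bear on the calls here. Ratios of members within a library were compared by exact permutation. The ratio of Fd-GOGAT to NADH-GOGAT1 could not be formed.

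The files hold no gene names. Symbols were paired with identifiers from the rice literature and compared with the RefSeq gene table (assembly ASM3414082v1) by chromosome and relative gene order (tolerance 0.05). Of 9 members 6 agreed and 3 (NiR, NADH-GOGAT1, NRT1.1B) have no entry under these symbols; of the 33 other nitrogen genes 16 agreed and 17, including NIA2, PPC4, LHT1, AAP6 and the urease gene, have none and are unchecked. The table gives the names AMT1;2 and AMT1;3 in the other order along the chromosome. Members and lists were chosen with earlier results of these data known. Named beside the members were called genes of the list with a log2 change of at least 1 and relatives of the member enzymes; DUR3, AAP3, AlaAT1, AAT1 and ASN2 were named after their values were seen. Alternatives were other pseudocounts (0.1, 0.5), filters (none, FPKM 5), scalings, no variance trend, a replicate block and leaving out each library.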

Additional observations from a re-analysis of the deposited data

How the results depend on the processing

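The calls of NIA1, NiR, GS2 and GS1;2 kept direction and threshold in all 13 alternatives. GS1;1, not called, reversed to -0.088 with median ratio scaling and to -0.0195 after quantile normalization, and NRT1.1B to -0.0031 with median ratio scaling. The median change of all loci was 0.15 as deposited, -0.00027 with median ratio scaling and 0.05 after quantile normalization. NRT1.1B could not be tested at a filter of FPKM 5. Of the other nitrogen genes 3 were called lower, against 7 with median ratio scaling and 7 after quantile normalization, and between 2 and 5 when each library was left out in turn (5 without wild type replicate 2). Without either pls4 library 20 genes were tested in place of 23, because the urease gene, AAP6 and NRT2.3 no longer passed the filter. In those fits a lone pls4 library is assumed to vary like the wild type ones. Over all loci 10208 were called, 64.3% of them higher; with median ratio scaling 9087 were, 46.9% of them higher, after quantile normalization 53.0% were higher, and without pls4 replicate 2 6891 were called.

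With the replicate number as a block 7294 loci were called, and the same 2 members higher and 2 lower (NiR -2.68, GS2 -1.37, NIA1 0.81, GS1;2 0.59). Wild type replicate 3 has no pls4 library of its number. These changes therefore equal those of the fit without that library, and are not separate estimates. The labels do not say that numbers mark a shared plant or day, and only 2 numbers are shared. The numbers were therefore not taken to pair the libraries. Deviations from the group means of same-numbered libraries correlated at -0.095 (number 1) and -0.138 (number 2) across loci. The deviations of the 2 pls4 libraries are mirror images of each other, so these values cannot decide whether numbers pair libraries. Averaged over numbers 1 and 2, the log2 ratio of GS2 to GS1;1 differed by -1.45 and that of NiR to NIA1 by -3.53. The GS2 to GS1;1 pairs were unlike in size. The ratio was 3.74 in pls4 against 6.81 in wild type for number 1, and 2.54 against 10.4 for number 2. Depth is unknown, which limits what can be said of genes near 0, and 2 pls4 libraries limit every estimate of spread.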
